A study of Mus musculus with 18 samples.

Results

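Adipose tissue of Cav1 knockout (KO) mice was compared with adipose tissue of wild-type (WT) mice on 6 arrays, the KO arrays numbered 2, 3 and 5 and the WT arrays numbered 1, 2 and 4, out of 18 arrays in the series. The arrays were chosen by tissue and genotype as the submitters labelled them. All of these mice had free access to food under a cycle of 12 hours of light and 12 hours of darkness until food was withdrawn, and adipose tissue was taken 11 hours later, so both genotypes were fasted. The labels give the genotypes only as Cav1 KO and WT, and strain, sex, age, fat depot and the construction of the allele are not given in the sources used here. Total RNA was hybridised to Illumina Mouse-6 V1 BeadChips, 1-colour arrays on which each probe is read as the average brightness of its beads. Nothing in the labels states that each array holds a separate animal, so a p-value here describes only how far these samples scatter, and that scatter may be technical.

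Caveolin-1 is the main coat protein of caveolae, flask-shaped pits of the plasma membrane that are held in shape by caveolins together with the cavins. Caveolae are especially dense on adipocytes and endothelial cells, where they are known for buffering membrane tension, for handling fatty acids and lipid droplets, and for hosting receptors such as the insulin receptor. During a fast, adipocytes break down stored triglyceride and lower the synthesis of new fatty acids.

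The arrays of KO 2 and KO 3 were alike, and KO 5 stood apart from both. On the first principal component, which held 53.64% of the variance, KO 2 scored 32.74, KO 3 scored 18.99 and KO 5 scored 2.12, against -27.14 to -13.25 for the WT arrays. KO 5 alone was high on the second component, which held 19.58% of the variance, at 26.43. The hepatocyte transcript Apoa2 read 9.48 on the log2 scale on KO 5 and 8.01 to 8.10 on the other 5 arrays, and the summed level of 4 hepatocyte markers was 1689 on KO 5 against 1046 to 1115 elsewhere. The 6 arrays lay on 1 slide, with WT 2, KO 2 and KO 3 at positions A to C and WT 4, KO 5 and WT 1 at positions D to F. These position groups, called sections of the slide below, were formed here and are not named in the labels. KO 5 shared its section with a pair of WT arrays. Each array detected between 14874 and 16970 of the probes, and any pair of arrays correlated at 0.9465 to 0.9879 over the tested probes. The Y-linked gene Eif2s3y did not pass the test, with a KO minus WT difference of 0.01 ± 0.11 (SE), and Xist was detected on none of the 6 arrays. The adipocyte genes Lpl and Car3 read above 15 on the log2 scale on average in both genotypes, and all 5 adipocyte markers that could be tested were detected.

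Among the genes of the caveolar coat, only Cav1 passed the test. Its normalised log2 intensity was 14.90, 15.31 and 15.38 on WT 1, 2 and 4, and 10.15, 11.14 and 11.13 on KO 2, 3 and 5. The KO arrays all lay far below the WT arrays, and the difference was -4.39 ± 0.31 (SE, n = 3 and 3 arrays, adjusted p = 0.0157). The call held in 2 of the 6 fits without 1 array, and with the section of the slide as a block the adjusted p was 0.0625. The residual signal of 1940 to 3167 raw units in KO was detected on all 3 KO arrays, and the position of the probe relative to the disrupted part of the gene is not given in the sources used here. The other tested genes of this list of 16, of which 7 had a named probe and 5 were bright enough to test, did not pass. Cavin1, which encodes the cavin that coats caveolae together with caveolin, differed by 0.15 ± 0.06 (adjusted p = 0.381). Its probe was dim and detected on 5 of the 6 arrays, so its difference is compressed. It read 169 to 280 raw units in WT and 321 to 376 in KO, with every KO array above every WT array. The caveolin gene Cav2 was detected on none of the arrays, so a change in it could not be read. Ehd4, an ATPase of the membrane-remodelling EHD family, differed by 0.31 ± 0.18, the membrane microdomain scaffold Flot2 by 0.09 ± 0.07, and the membrane-bending protein Pacsin3 by -0.12 ± 0.20. In a bulk tissue sample, fewer cells of a type and less RNA per cell cannot be told apart, here and in every result that follows.

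Of 15964 probes tested, 65 passed an adjusted p of 0.05, which is 0.407%, with 36 higher in KO (0.226%) and 29 lower (0.182%). Of 4884 tested probes with a gene name, 26 passed (0.532%), 15 of them higher (0.307%) and 11 lower (0.225%), and the other 39 have no name here and ranged from -5.95 to 5.12. For all 26 named genes the KO and WT arrays did not overlap, against 20.6% of all named probes. They were chosen by their p-value on these same arrays, so the lack of overlap is no further evidence. All 26 kept their direction in each of 16 alternative analyses, which reuse these arrays and so could hardly reverse it. The number still called was 3 without WT 1, 8 without WT 2, 7 without WT 4, 9 without KO 2, 5 without KO 3 and 15 without KO 5. Over all probes, those fits called 0.0579%, 0.117%, 0.149%, 0.184%, 0.138% and 0.605% in the same order. Fgfr1op2, Cdkl2 and Srpr stayed called whichever array was left out, and 10 of the 26 were called in none of those 6 fits. With the section of the slide as a block, 10 of the 26 were called, and 0.194% of all probes.

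**Figure D1:**
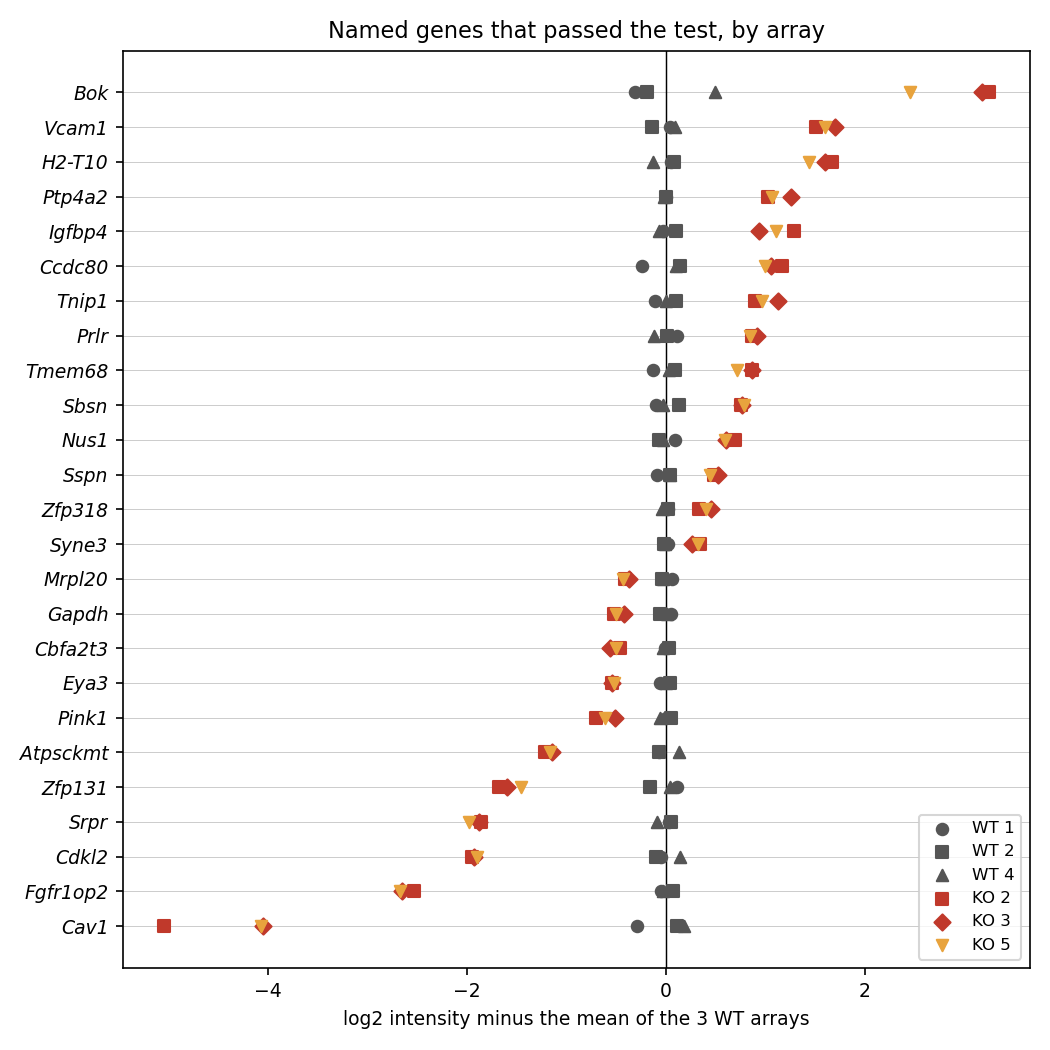
Log2 intensity of 25 called named genes on each of the 6 adipose arrays, as the difference from the mean of the 3 WT arrays (horizontal axis), with 1 row a gene and 1 symbol an array. The 3 KO arrays lie on 1 side of the 3 WT arrays in every row, from Bok, where KO 5 lies nearer to WT than KO 2 and KO 3 do, to Cav1, where KO 2 is lowest.

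Genes of immune recognition and cell adhesion were among the largest rises. Vcam1, an adhesion molecule of activated endothelium and stroma that binds leukocyte integrins, read 1184, 1632 and 1497 raw units on WT 1, 2 and 4 and 3734, 4041 and 2877 on KO 2, 3 and 5. Every KO array was above every WT array, and the log2 difference was 1.60 ± 0.08 (adjusted p = 0.00659). None of the other 5 tested genes of the leukocyte adhesion list passed, and their differences ran from -0.14 for F11r to -0.00 for Itgal. Both of these probes were dim, F11r at 288 to 495 raw units and Itgal at 205 to 239. Differences of such dim probes are compressed, so they say little about a change like that of Vcam1. H2-T10, a non-classical MHC class I gene, read 888.1, 1364 and 989 in WT and 2984, 2839 and 1932 in KO. Its difference was 1.57 ± 0.09 (adjusted p = 0.00806), again with no overlap between the groups.

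H2-T10 was the single called gene among 13 tested genes of MHC class I presentation, the pathway that shows cytosolic peptides at the cell surface. Of the 13, 11 lay above 0 and 7 reached an unadjusted p under 0.05 in the higher direction, against 7.08% of all named probes, with a median of 0.21 against 0.00 over all named genes. That median ran from 0.17 to 0.68 over the alternatives. H2-T23 was measured by a pair of probes, at 1.33 ± 0.18 (adjusted p = 0.0703) and 1.76 ± 0.20 (adjusted p = 0.0519). The classical class I gene H2-K1 differed by 1.01 ± 0.20 (adjusted p = 0.149) and H2-Q2 by 0.91 ± 0.11 (adjusted p = 0.0625). H2-Q5, picked out after its value was seen because it lay just past the threshold, differed by 1.25 ± 0.14 (adjusted p = 0.0509). H2-Q6 stood at 0.39, and the other 8 members, which include the light chain B2m and subunits of the immunoproteasome, lay between -0.03 for Psme2 and 0.22 for Psmb10. These class I genes are close copies of each other, and a probe may read more than 1 of them, so the split between members is uncertain.

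MHC class II genes, which present engulfed antigens on macrophages, dendritic cells and B cells, all lay above 0 but depended on the KO array. H2-DMb1, which helps to load class II molecules, read 522, 1046 and 702 raw units on WT 1, 2 and 4, against 1957 and 1976 on KO 2 and KO 3 and 819 on KO 5. KO 5 lay within the raw range of WT, and just above it after normalisation, while the other KO arrays were well above. The 4 tested class II genes had a median difference of 1.02 with none called, and 1.37 without KO 5, when 3 were called. In that fit H2-Ab1 stood at 1.47 (adjusted p = 0.0384), H2-DMb1 at 1.44 (adjusted p = 0.0439) and H2-DMa at 1.27 (adjusted p = 0.0439), while the invariant chain Cd74 did not pass (adjusted p = 0.0963). Within positions D to F, which hold KO 5, the median was 0.46, and within positions A to C it was 1.14.

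Complement genes shared the direction. All 7 tested members lay above 0, with a median of 0.58 (0.37 to 0.97 over the alternatives) and none called. In 4 of them the unadjusted p was under 0.05 in the higher direction, against 7.08% of named probes. C1qa, a subunit of the recognition molecule of the classical pathway that macrophages make, differed by 1.16 ± 0.30 (adjusted p = 0.219), and Cd55, which protects host cells from complement, by 0.83. Interferon response genes lay the other way. Of 8 tested, 7 lay below 0 with a median of -0.10 (-0.19 to -0.02 over the alternatives) and none called, including the chemokine Cxcl9 at -0.95.

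Tnip1, whose protein binds the deubiquitinase A20 and restrains NF-kB signalling, read 959, 1624 and 1266 raw units in WT and 2343, 2594 and 1774 in KO. The groups did not overlap and the difference was 1.00 ± 0.08 (adjusted p = 0.0252). The chemokine Cxcl1, the other tested member of the inflammatory list, differed by 0.09. The stretch of 250 bases before the annotated start is printed for Tnip1 and for 3 genes of antigen presentation described above, because most members of the antigen presentation lists lay above WT and these families are textbook targets of the motifs searched. Sequences are from RefSeq, build GRCm38.p6, written from 5′ to 3′ on the strand of the gene, with 1 matched motif each in capitals. They cover chr11:54962941-54963190 on the minus strand for Tnip1, chr17:34000348-34000597 on the minus strand for H2-K1 at the first of 2 starts, chr17:36032702-36032951 on the minus strand for H2-T23 and chr17:34152941-34153190 on the plus strand for H2-DMb1.
Tnip1: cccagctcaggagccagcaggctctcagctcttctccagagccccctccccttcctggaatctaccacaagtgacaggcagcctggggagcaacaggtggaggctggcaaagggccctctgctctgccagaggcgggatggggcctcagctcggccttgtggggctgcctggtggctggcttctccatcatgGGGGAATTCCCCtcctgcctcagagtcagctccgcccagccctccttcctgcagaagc
H2-K1: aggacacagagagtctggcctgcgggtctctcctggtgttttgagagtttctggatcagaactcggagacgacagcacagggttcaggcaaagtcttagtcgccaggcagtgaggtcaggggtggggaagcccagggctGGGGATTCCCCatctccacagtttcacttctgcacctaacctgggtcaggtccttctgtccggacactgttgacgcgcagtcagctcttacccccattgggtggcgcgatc
H2-T23: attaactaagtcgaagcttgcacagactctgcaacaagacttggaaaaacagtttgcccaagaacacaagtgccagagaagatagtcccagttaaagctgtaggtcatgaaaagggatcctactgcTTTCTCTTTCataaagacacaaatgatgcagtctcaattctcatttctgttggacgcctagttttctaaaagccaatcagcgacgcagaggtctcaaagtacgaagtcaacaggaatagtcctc
H2-DMb1: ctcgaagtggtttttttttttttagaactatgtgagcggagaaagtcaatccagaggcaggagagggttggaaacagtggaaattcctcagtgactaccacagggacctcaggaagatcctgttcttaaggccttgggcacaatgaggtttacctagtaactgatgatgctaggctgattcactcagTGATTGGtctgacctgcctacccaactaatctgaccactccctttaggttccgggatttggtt
The capitals mark the NF-kB consensus in Tnip1 and H2-K1, the core of the interferon regulatory factor site, searched as GAAANNGAAA on both strands and found on the opposite strand, in H2-T23, and the Y box, searched as TGATTGG on both strands, in H2-DMb1. H2-T23 also holds 1 Y box match, left in lower case. In Tnip1 and H2-K1 the capitals cover 4 overlapping matches, since the motif is nearly symmetric. Over 32851 windows of 250 bases before a start, 7.25% held an NF-kB match, 2.98% the interferon regulatory factor core and 7.23% the Y box, so each is found before many genes. These matches are descriptions of the letters and carry no measurement of binding. The genes shown and the motif marked in each were picked by hand. How many windows of the called or MHC genes held a match was not counted, so the printed matches do not show that motifs are frequent among them. Of the 26 called genes, 21 had a window in the table, and of the 17 tested MHC genes 14 had one. Vcam1, H2-T10 and H2-Ab1 had none.

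Bok, a member of the Bcl-2 family that promotes cell death at the mitochondrion, showed the largest rise of the called named genes. Its raw signal was 691, 1113 and 1356 on WT 1, 2 and 4 and 7167, 6898 and 3318 on KO 2, 3 and 5. All KO arrays were higher, with KO 5 less than the other KO arrays, and the difference was 2.96 ± 0.31 on the log2 scale (adjusted p = 0.0432). It was called in 1 of the 6 fits without 1 array, at 3.21 without KO 5 (adjusted p = 0.0436), and not in the other 5, where the adjusted p reached 0.156. With the section block the adjusted p was 0.108. The other 8 tested genes of the Bcl-2 and apoptosis list did not pass and lay between -0.20 for the adaptor Fadd and 0.23 for Bcl2a1a.

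Receptors, growth factor regulators and signalling enzymes formed most of the remaining rises. Prlr, the receptor for prolactin, which signals through JAK2 and STAT5, read 516, 673 and 479 raw units in WT and 1305, 1312 and 944 in KO. The lowest KO array was above the highest WT array, and the difference was 0.88 ± 0.07 (adjusted p = 0.0183), with 1.34 at the highest over the alternatives. Of 10 tested genes of growth hormone, prolactin and JAK-STAT signalling, 9 lay above 0 and Prlr alone passed, with Stat3 at 0.55 ± 0.16 (unadjusted p = 0.012) and the feedback inhibitor Socs2 at 0.38. Cish, another feedback inhibitor, was the 1 member below 0, at -0.18.

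Ptp4a2, a prenylated tyrosine phosphatase of the PRL family, rose by 1.12 ± 0.07 (adjusted p = 0.00845) at the called probe and differed by 0.47 ± 0.16 (adjusted p = 0.314) at a brighter probe of the same gene. Igfbp4, a secreted protein that binds insulin-like growth factors and limits their access to the receptor, rose by 1.11 ± 0.10 (adjusted p = 0.0326).

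Igfbp4 was the only called gene of 12 tested in insulin and IGF signalling, which had a median of 0.04. Its relatives Igfbp6 and Igfbp5 stood at 1.57 ± 0.81 and 0.44 and the kinase Akt2 at -0.43. Ccdc80, a secreted matrix protein of adipose tissue, rose by 1.08 ± 0.12 (adjusted p = 0.0486), from 14.20, 14.58 and 14.55 on the log2 scale in WT to 15.62, 15.51 and 15.44 in KO. Ccdc80 was the 1 called gene of 3 tested adipokine genes. Among them, Mest, an imprinted gene linked to fat expansion, stood at 0.78 ± 1.40, with 2.10 without KO 5 and -0.13 at the lowest over the alternatives.

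Among smaller rises were genes of membranes and the nuclear envelope. Nus1, a subunit of the enzyme that builds the dolichol chain for protein glycosylation, rose by 0.63 ± 0.06 (adjusted p = 0.028), and Tmem68, an acyltransferase of the endoplasmic reticulum, by 0.81 ± 0.07 (adjusted p = 0.0317). Sspn encodes sarcospan, a membrane-spanning member of the dystrophin-associated complex, and read 11.66, 11.80 and 11.80 in WT and 12.25, 12.28 and 12.20 in KO. Its change of 0.49 ± 0.05 (adjusted p = 0.0432) was small but larger than the spread within either group. Syne3, which encodes the nuclear envelope protein nesprin-3, rose by 0.31 ± 0.03 (adjusted p = 0.0497), and the zinc finger gene Zfp318 by 0.40 ± 0.04 (adjusted p = 0.0419). Sbsn, known as a secreted protein of differentiating epidermis, read 246, 519 and 330.1 raw units in WT and 1012, 984 and 757 in KO, a rise of 0.77 ± 0.06 (adjusted p = 0.0261). With the background taken from the median and MAD of the controls, the difference was 1.94 for Sbsn and 0.91 for Syne3. Zfp318 reached 0.62 at the highest over the alternatives.

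Beside Cav1, 10 named genes fell. Fgfr1op2, known as a fusion partner of a fibroblast growth factor receptor, read 1999, 3193 and 2509 raw units in WT 1, 2 and 4 and 624, 507 and 406 in KO 2, 3 and 5. The groups were far apart, with a log2 difference of -2.62 ± 0.06 (adjusted p = 0.000286). A dimmer second probe of the gene differed by -0.09 ± 0.03 (adjusted p = 0.373). Cdkl2, a kinase related to the cyclin-dependent kinases, read 1306, 1923 and 1779 in WT and 429, 426 and 378 in KO, and fell by 1.92 ± 0.07 (adjusted p = 0.00163), with -2.92 at the lowest over the alternatives. Srpr, the receptor subunit that docks ribosomes making secreted proteins at the endoplasmic reticulum, fell by 1.91 ± 0.05 at 1 probe (adjusted p = 0.000553) while a second probe differed by 0.06 ± 0.14 (adjusted p = 0.903). The second Fgfr1op2 probe averaged 8.26 in WT and 8.17 in KO on a log2 scale whose lowest value was 7.91. It thus left little room to show a fall. The second Srpr probe was brighter, at 10.66 in WT and 10.73 in KO, and the probes of Srpr disagree. Which transcripts the probes of these genes read is not given in the sources used here.

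The zinc finger gene Zfp131 fell by 1.58 ± 0.09 (adjusted p = 0.00843). Eya3, a phosphatase and transcriptional co-activator, fell by 0.53 ± 0.04 (adjusted p = 0.0123), and the co-repressor Cbfa2t3 by 0.50 ± 0.04 (adjusted p = 0.0186). With the background taken from the median and MAD of the controls, the difference was -1.74 for Eya3 and -1.08 for Cbfa2t3. The remaining falls were in genes of mitochondria and glycolysis. Atpsckmt, which methylates the c subunit of ATP synthase, fell by 1.18 ± 0.07 (adjusted p = 0.00806). Pink1, the kinase that marks damaged mitochondria for removal, fell by 0.61 ± 0.06 (adjusted p = 0.0373), and Mrpl20, a protein of the mitochondrial ribosome, by 0.41 ± 0.04 (adjusted p = 0.0381). Gapdh, a glycolytic enzyme often used as a reference gene, fell by 0.48 ± 0.05 (adjusted p = 0.0328) at 1 probe and differed by -0.34 ± 0.21 (adjusted p = 0.566) at a brighter one, where KO 5 overlapped WT.

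By position, chromosome 6 held 5 of the 26, among 249 named probes tested there (2.01%, against 0.532% of all named probes). Cav1, the knocked-out gene, is itself 1 of these 5, and Gapdh, Sspn and Fgfr1op2 are others. In the gene order of GRCm38.p6, 2 protein-coding genes lie between Sspn and Fgfr1op2, while 826 lie between Cav1 and Gapdh. Chromosome 4 also held 5, among 317 tested (1.58%), and these were Tmem68, Ptp4a2, Eya3, Pink1 and Mrpl20, with at least 34 protein-coding genes between any neighbours in that order. Strain and breeding are not given in the labels, and the part of chromosomal position in these differences was not tested.

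Nuclear genes of energy metabolism lay below WT as groups, with few members passing on their own. Of 40 tested genes of oxidative phosphorylation, the respiratory chain and ATP synthase of the mitochondrial inner membrane, 39 lay below 0, against 50% of all named probes. Their median difference was -0.40, against 0.00 over all named genes. In 22 of the 40 the unadjusted p was under 0.05 in the lower direction, against 7.78% of named probes, and the same number had KO arrays wholly below WT arrays, against 11.1%. None was called, and the smallest adjusted p was 0.104, for Cox7a1.

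Cox7a1, a subunit of cytochrome c oxidase found in muscle and brown fat, read 10.17, 9.70 and 9.57 on the log2 scale in WT and 8.62, 8.69 and 8.91 in KO. All KO arrays were lower, by 1.07 ± 0.18. Cyc1, the cytochrome of complex III, differed by -0.84 ± 0.33, the complex I subunit Ndufb5 by -0.76 and Cox7a2l, a factor of respiratory supercomplexes, by -0.75. Cox7a2l was far lowest on KO 3, at 1045 on the linear normalised scale. It read 2271 on KO 2 and 2548 on KO 5, against 2951 to 3202 in WT. Atp5g1, which encodes the c subunit of ATP synthase, was the member above 0, at 0.25 (unadjusted p = 0.063). The median of the 40 was -0.48 without KO 5, -0.51 within positions A to C and -0.20 within positions D to F, and it ran from -0.48 to -0.29 over the alternatives.

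The citric acid cycle and pyruvate entry, which feed the respiratory chain, showed the same sign in all 10 tested genes, with a median of -0.57 and none called. In 6 of the 10 the unadjusted p was under 0.05 in the lower direction, against 7.78% of named probes. Sdhb, a subunit of succinate dehydrogenase, read 12.76, 12.72 and 12.40 in WT and 11.55, 11.84 and 12.23 in KO, a difference of -0.75 ± 0.20 (adjusted p = 0.231) with KO 5 nearest to WT. Pdhb, a subunit of pyruvate dehydrogenase, stood at -1.13 ± 0.39, the isocitrate dehydrogenase subunit Idh3b at -0.79 and malate dehydrogenase Mdh2 at -0.72. The 4 tested genes of branched-chain amino acid catabolism all lay below 0 with a median of -0.43. All 7 of fatty acid beta-oxidation lay below 0 with a median of -0.15, which ran from -0.65 to -0.07 over the alternatives, led by Hadhb at -0.66.

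Of 14 tested glycolysis genes, 13 lay below 0, against 50% of all named probes, and the median was -0.45. In 10 the unadjusted p was under 0.05 in the lower direction, against 7.78% of named probes, and none was called at its brightest probe. Aldoa, the aldolase of muscle and fat, read 15.04, 14.74 and 15.02 in WT and 14.11, 14.25 and 14.25 in KO, with no overlap and a difference of -0.73 ± 0.10 (adjusted p = 0.0703). The phosphofructokinase Pfkl differed by -1.06 ± 0.18, and the lactate dehydrogenase Ldhb by -1.06 ± 0.20. Eno3, the enolase of muscle, was the member above 0, at 0.32. Without KO 5 the median was -0.49, and within positions D to F it was -0.61, where KO 5 is the only KO array.

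Of 33 tested genes of the mitochondrial ribosome, 25 lay below 0, with a median of -0.20 (-0.26 to -0.14 over the alternatives), and Mrpl20 was the 1 member called. Mrpl33, at 0.42 ± 0.06 (adjusted p = 0.0979), and Mrpl1, at 0.33, lay the other way. The 12 tested genes of the mitochondrial genome had a median of -0.06, with 8 below 0 and none called, but 9 of them averaged above 15 on a scale that ended at 16.04, so a difference in them could not be read well. The mitochondrial chaperones Hspe1 and Hspd1 stood at -0.65 ± 0.09 (adjusted p = 0.0748) and -0.51. Of 61 tested cytosolic ribosomal protein genes, 43 lay above 0, with a median of 0.05.

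**Figure D2:**
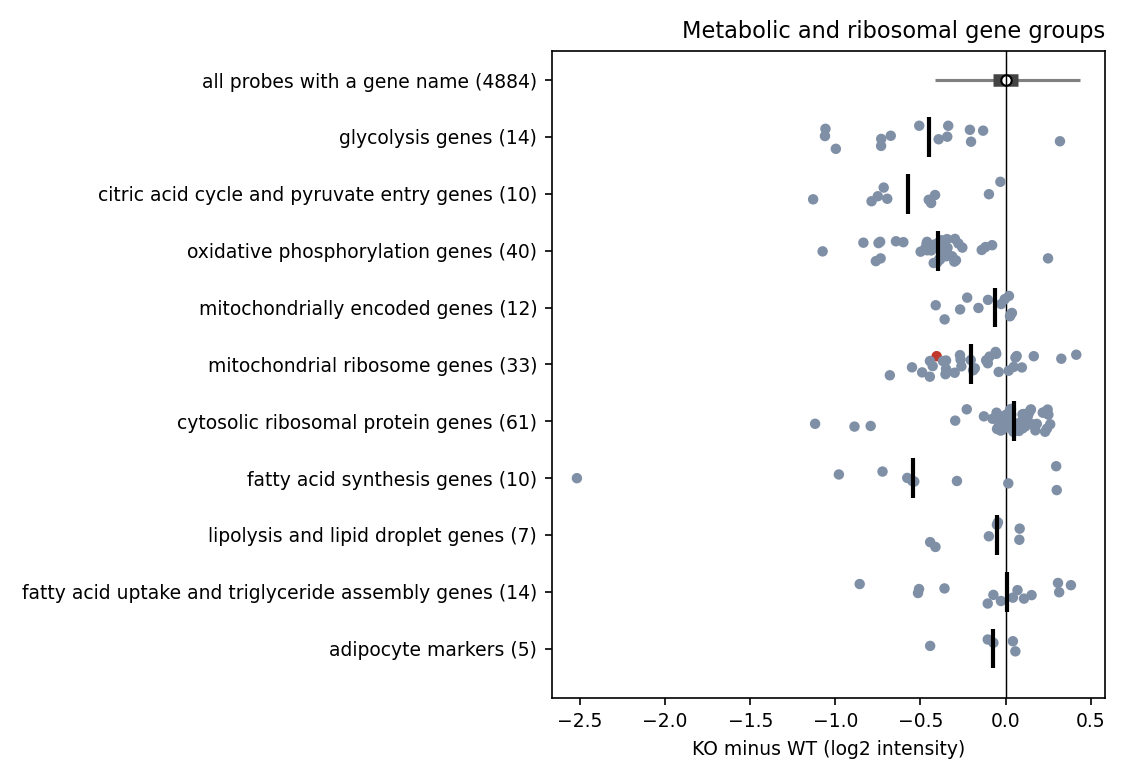
KO minus WT difference in log2 intensity (horizontal axis) of each tested gene in 9 metabolic and ribosomal groups and the adipocyte markers, 1 point a gene, with the median as a black bar, the called gene in red and the number of genes in brackets. The top row gives the median of all named probes with the middle 50% as a thick bar and the middle 90% as a thin line. Oxidative phosphorylation genes cluster near -0.40 and cytosolic ribosomal protein genes near 0.05.

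In fatty acid synthesis, Elovl6, which lengthens saturated fatty acids, read 14.03, 13.47 and 13.87 in WT 1, 2 and 4 and 10.57, 11.68 and 11.55 in KO 2, 3 and 5. The groups lay far apart, at -2.52 ± 0.34, but the adjusted p was 0.0711, and the gene was called in 6 of 16 alternatives. Acaca, the acetyl-CoA carboxylase that commits carbon to fatty acids, read 15.81, 15.39 and 15.31 in WT and 14.07, 14.63 and 14.87 in KO, a difference of -0.98 ± 0.25 (adjusted p = 0.21). ATP citrate lyase Acly stood at -0.72 ± 0.17 and fatty acid synthase Fasn at -0.54 ± 0.14. Of 10 tested genes of this list, 7 lay below 0, none was called and the median was -0.54, from -0.67 to -0.30 over the alternatives. In 4 of them the unadjusted p was under 0.05 in the lower direction, against 7.78% of named probes.

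Lipolysis and lipid droplet genes had a median of -0.05 over 7 tested, which was -0.19 without KO 5 and 0.07 at the highest over the alternatives, with the glycerol channel Aqp7 at -0.44 ± 0.09 (adjusted p = 0.155) and the triglyceride lipase Pnpla2 at -0.10. Fatty acid uptake and triglyceride assembly had 14 tested genes with a median of 0.01, from -0.86 ± 0.36 for Pck1, which supplies glycerol backbones in fasted fat, to 0.38 for the acyl-CoA synthetase Acsl5. Adipogenic transcription factors had a median of 0.02 over 8 tested, with Cebpa at 0.00 ± 0.07. Cholesterol synthesis split, with Lss at -1.06, Acat2 at -1.04 and a median of -0.05 over 12, or -0.35 at the lowest over the alternatives. None of these 4 lists had a called gene.

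Matrix genes and markers of fibroblasts, macrophages and mesothelium lay above WT together with the immune genes, and furthest in KO 2 and KO 3. Of 8 tested collagen genes, 6 lay above 0 with a median of 0.94 and none called. Col1a1, a chain of the main fibrillar collagen, read 10.62, 12.03 and 11.24 in WT and 13.84, 13.01 and 11.69 in KO. The groups overlapped because KO 5 lay below WT 2, and the difference of 1.55 ± 0.65 did not pass (adjusted p = 0.405). The collagen median was 1.22 without KO 5, 1.10 within positions A to C and 0.41 within positions D to F. Other extracellular matrix genes had 13 of 16 above 0, a median of 0.44 and, within positions D to F, 0.06. Without KO 5 that median was 0.78, and it was 0.22 at the lowest over the alternatives.

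The summed level of the 3 measured fibroblast markers was 18374 to 34602 on the linear normalised scale in WT and 34720 to 70904 in KO. These were Dcn and the collagens Col1a1 and Col3a1, so this group and the collagen genes share members. For the 6 measured macrophage markers the summed level was 4479 to 10338 in WT and 8302 to 18956 in KO. One of these markers, C1qa, is also counted among the complement genes. The 5 tested macrophage markers lay above 0 with a median of 0.68, which ran from 0.29 to 0.99 over the alternatives. Itgam, included in the sum, was not detected on any array. The 6 measured mesothelial markers summed to 1504 to 2208 in WT and 1728 to 5357 in KO, and Upk3b, a marker of the serous lining of organs, stood at 1.60 ± 0.94 with the highest values on KO 2 and KO 3. Endothelial markers lay below 0 in all 5 tested genes, with a median of -0.41, -0.68 without KO 5 and -0.11 at the highest over the alternatives, and the 6 measured summed to 7778 to 12209 in WT against 5974 to 9203 in KO. Eng, the endothelial co-receptor of TGF-beta, read 9.85, 9.69 and 10.01 in WT and 9.05, 9.10 and 9.12 in KO, a difference of -0.76 ± 0.09 just past the threshold (adjusted p = 0.0516). Adipocyte markers summed to 107302 to 124335 in WT and 119589 to 121239 in KO, with a median difference of -0.07 over 5 genes, and most of the sum came from Lpl and Car3, which lay near the top of the scale. The 3 measured pancreas markers and Myh1, the 1 measured skeletal muscle marker, were not detected on any array, and none of the 4 measured markers of epididymis, prostate and mammary epithelium was bright enough to test. The part of tissue composition in the gene differences was not tested.

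**Figure D3:**
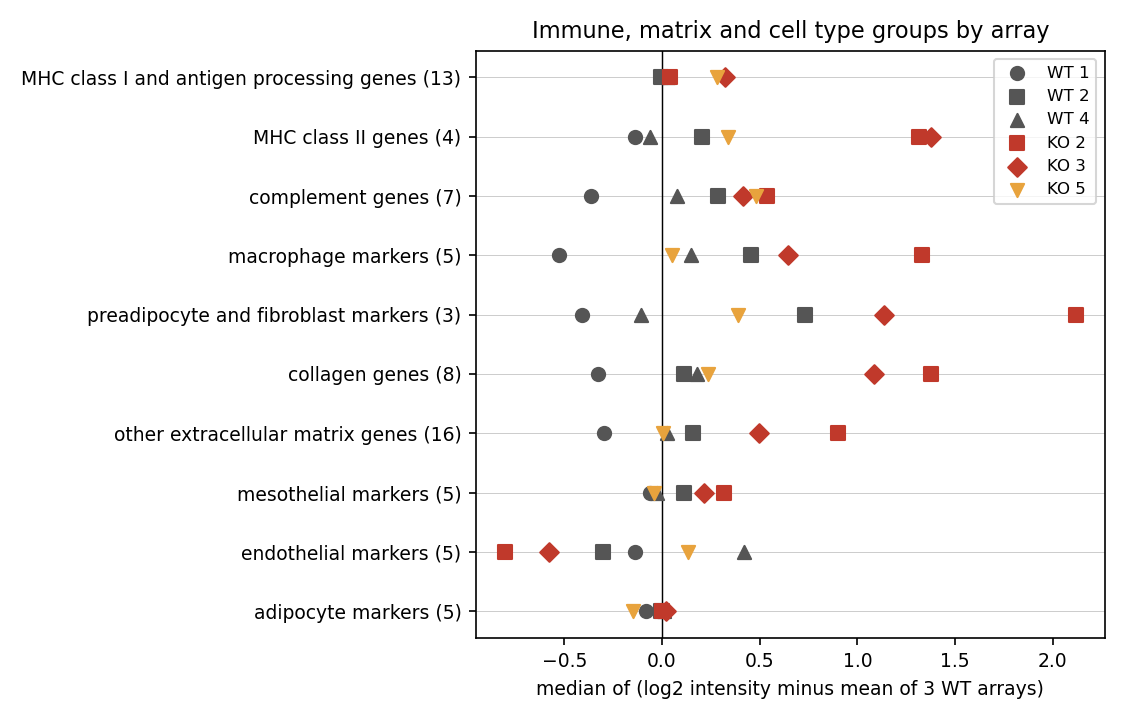
Median over the tested genes of each group of log2 intensity minus the mean of the 3 WT arrays (horizontal axis), 1 symbol an array, with the number of genes in brackets. KO 2 and KO 3 lie to the right for MHC class II, collagen, fibroblast and macrophage genes and to the left for endothelial markers, and KO 5 lies among or near the WT arrays in most rows.

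The called adipose genes were then read in liver, taken 24 hours after food withdrawal, and in a primary line of embryonic fibroblasts (MEF), collected 24 hours after plating, each with 3 KO and 3 WT arrays. These values come from 1 fit of all 18 arrays, in which 992 of 19945 probes were called in adipose (4.97%), 1346 in liver (6.75%) and 428 in MEF (2.15%). The KO and WT comparisons of the sources share no arrays, but they were normalised together and share 1 estimate of spread. The differences of adipose tissue from liver and from MEF use the same adipose arrays. Tissue, fasting time and slide differ together here and cannot be told apart. The genes were chosen for their adipose change, which favours a larger difference in adipose tissue. A probe entered this fit if 3 or more of the 18 arrays detected it, so adipose arrays alone could admit it. The levels of these probes in liver and MEF are not given here, and a probe too dim in a source cannot show a change there. The difference in KO effect between adipose and liver was called for 4.25% of these probes, and between adipose and MEF for 2.44%. Of the 26 genes, 7 were called in liver and 8 in MEF in the direction of adipose tissue, 4 were called in both and 14 in neither.

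Among the 4 genes called in all 3 sources were Fgfr1op2, Eya3 and Tmem68. Fgfr1op2 stood at -2.62 ± 0.07 in adipose, -1.72 ± 0.07 in liver and -1.99 ± 0.07 in MEF. Eya3 stood at -0.46 ± 0.06, -0.53 ± 0.06 and -0.46 ± 0.06 in that order, and Tmem68 rose by 0.80 ± 0.14, 0.76 ± 0.14 and 0.86 ± 0.14. For Eya3 and Tmem68 the test of the difference between adipose and either other source gave adjusted p from 0.798 to 1.

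Other genes differed between the sources. Cav1 stood at -4.57 ± 0.27 in adipose and -3.60 ± 0.27 in MEF, and was called in both, while in liver it differed by -0.28 ± 0.27 and did not pass. Bok differed by 3.04 ± 0.25 in adipose, -0.47 ± 0.25 in liver and 0.22 ± 0.25 in MEF, and the difference from either was called, as it was for 15 of the 26 genes against liver and 16 against MEF. Prlr and Tnip1 also differed from both, with Prlr at -0.38 ± 0.14 in liver. Srpr fell in liver by 1.64 ± 0.06 but stood at 0.13 ± 0.06 in MEF, and Atpsckmt fell by 1.44 ± 0.09 in liver and stood at -0.21 ± 0.09 in MEF. Igfbp4 was the 1 gene called in opposite directions, at 1.20 ± 0.23 in adipose and -1.48 ± 0.23 in MEF. Vcam1, at 0.93 ± 0.35 in liver and -0.17 ± 0.35 in MEF, did not pass the test of a difference from adipose tissue in either case (adjusted p = 0.535 and 0.0755).

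**Figure D4:**
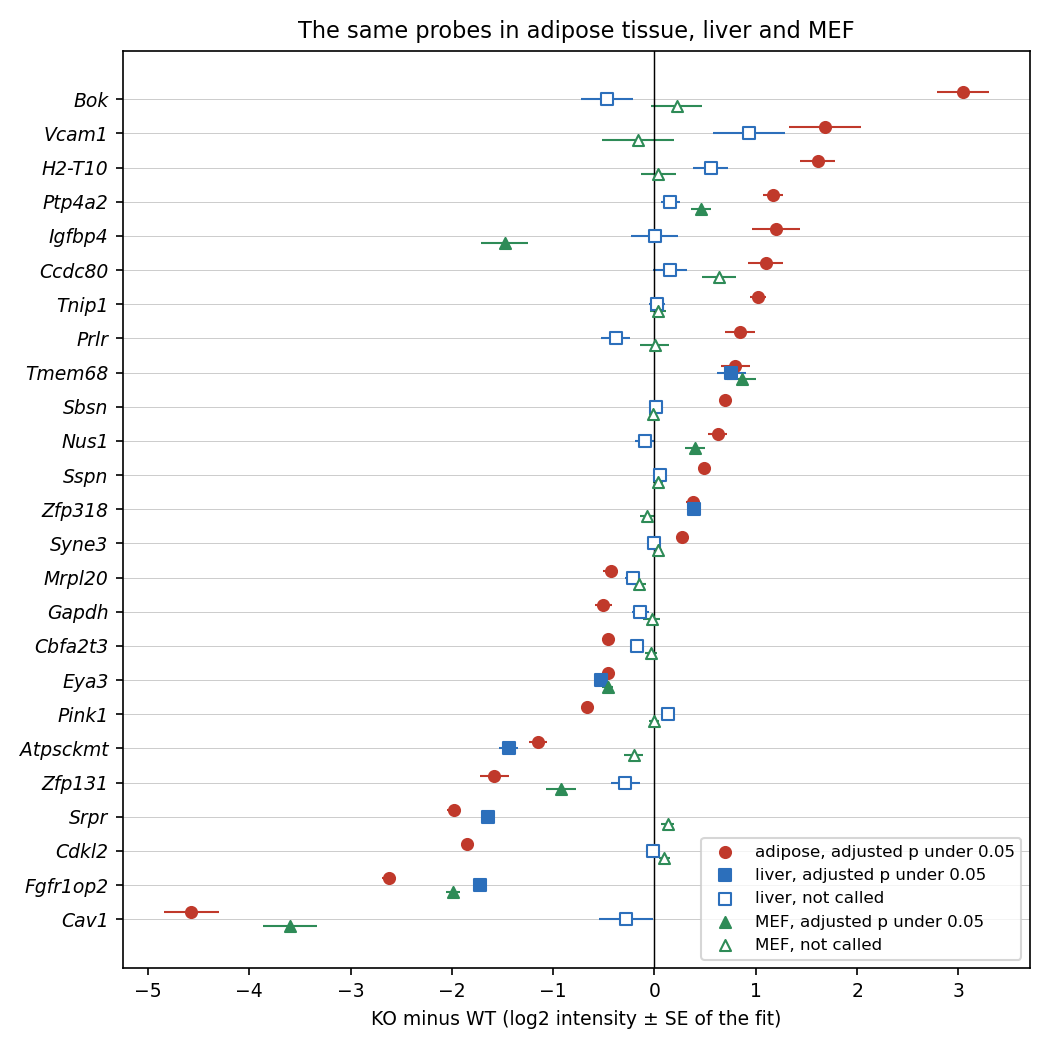
KO minus WT difference in log2 intensity ± SE (horizontal axis) of 25 called adipose genes in adipose tissue, liver and MEF, from 1 fit of 18 arrays, with filled symbols for an adjusted p under 0.05. Fgfr1op2, Eya3 and Tmem68 lie on the same side in all 3, and Bok lies far from 0 in adipose tissue alone.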

How the data were processed

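Adipose RNA of 3 KO and 3 WT arrays was analysed, grouped by title, with liver and MEF arrays used for the comparison across sources. Raw bead intensities were deposited as exported, without normalization or an error model, per the file headers. Per the file headers, a deposited detection value accompanies each intensity, and it was used as deposited as the detection p-value. Linear intensities normalized by the authors served as an alternative. Tools named in the submitters' processing notes, with no role given, are affy, limma, lumi and RMA. The authors' other information, a table of slide and position, gave the positions A to F. The sections A to C and D to F were formed here from these positions.

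In R 4.3.3 with limma 3.58.1, the normexp model removed background, its negative controls being inferred from detection p-values, an offset of 16 was added, and the 6 arrays were quantile normalized and put on the log2 scale. Of 45992 probes, 81 controls were left out, and a probe was tested where 3 or more of the 6 arrays had a detection p below 0.05, with lmFit and eBayes, two-sided, with Benjamini-Hochberg adjustment over all of them. Differences between sources were interaction terms of 1 fit of all 18 arrays, normalised together. The fitted background SD was 358.55 to 507.09 raw units, against a median absolute deviation of 20.61 to 22.98 among the controls, so differences of dim probes are compressed. The number of arrays limits the precision.

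Probes come with no gene table here. Numbers in probe names were taken as NCBI gene IDs and matched to RefSeq (GRCm38.p6): 82.6% of 11868 numbers matched, against 41.1% to 46.2% when shifted. This named 9807 probes, a RIKEN synonym 899, an accession 9 and the table's own name 365, while 34831 stayed unnamed. A single name can be wrong. Named are Cav1, the called genes, up to 4 further members of each list with the largest differences, and all caveola coat genes and adipocyte markers. Fasn, Mrpl1, Mrpl33, Cebpa, Atp5g1, Eno3, Cish, H2-Q5 and the ends of quoted ranges were picked after their values were seen. Lists use the brightest probe of a gene, and the called Srpr, Ptp4a2 and Gapdh probes are not the brightest. The members and lists were chosen with earlier results of these data known. A called gene and a few list members are not reported here. The fit was tested on simulated data.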

Additional observations from a re-analysis of the deposited data

Results flagged for a closer look

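The KO effect in adipose tissue was set against that in liver and in MEF for the 26 called genes, with an interaction term in 1 fit of 18 arrays. The difference, adipose minus the other source on the log2 scale, passed an adjusted p of 0.05 for 15 genes against liver and 16 against MEF, compared with 4.25% and 2.44% of the 19945 probes in that fit. The genes were chosen for their adipose values, so a larger effect in adipose tissue is favoured by that choice. Their levels in liver and MEF are not given, and a probe too dim in a source cannot show a change there. Tissue and fasting time differ together, and without KO 5 the interaction with MEF was called for 1000 probes in place of 487.

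Against liver, the lower values in adipose tissue were those of Cav1 at -4.29, Cdkl2 at -1.83, Zfp131 at -1.29, Fgfr1op2 at -0.90 and Pink1 at -0.80. The higher values were those of Bok at 3.51, Prlr at 1.23, H2-T10 at 1.06, Ptp4a2 at 1.01, Tnip1 at 1.00, Ccdc80 at 0.95, Nus1 at 0.72, Sbsn at 0.68, Sspn at 0.43 and Syne3 at 0.27. Prlr and Bok, a hormone receptor and a cell death protein, thus differed from liver by more than their own adipose rise, since both lay below 0 in liver without passing the test there.

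Against MEF, the lower values were those of Srpr at -2.11, Cdkl2 at -1.95, Atpsckmt at -0.94, Pink1 at -0.67, Fgfr1op2 at -0.63 and Cbfa2t3 at -0.42. The higher values were those of Bok at 2.83, Igfbp4 at 2.68, H2-T10 at 1.57, Tnip1 at 0.99, Prlr at 0.84, Sbsn at 0.71, Ptp4a2 at 0.71, Sspn at 0.46, Zfp318 at 0.46 and Syne3 at 0.24. For Igfbp4 the effect had opposite signs in these sources.

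A control probe named NeoR, left out of every comparison, gave a signal on KO arrays only. Its raw intensity was 420.5 on KO 2, 607.9 on KO 3 and 648.3 on KO 5, each with a detection p of 0. On WT 1, 2 and 4 it read 187, 202.1 and 184.9, with detection p of 0.174, 0.234 and 0.349. The MEF KO arrays also detected it, at 189.9 to 295.9, and the liver KO arrays did not, at 105.4 to 112.6. On all 3 adipose KO arrays, KO 5 included, this signal goes with the label.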

How the results depend on the processing

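No paired analysis was possible because the KO and WT adipose arrays share only the number 2. The count of called probes, 65 with 36 higher and 29 lower, depended on the analysis. It was 275 (146 higher, 129 lower) with no background correction, 210 (112, 98) with the background from the median and MAD of the controls, 43 (20, 23) with median centring, 160 (78, 82) with the authors' normalized values, 31 (14, 17) with no filter, 250 (131, 119) with a trended and robust variance, 408 (213, 195) with array weights, 31 (12, 19) with the section block and 992 (459, 533) in the fit of 18 arrays. Leaving out 1 array in turn gave 9 to 94 calls, 2 to 59 higher and 7 to 35 lower, lowest without WT 1 and highest without KO 5. Of the 65, 39 were among the 94 called without KO 5, and 65 were among the 408. The interaction with liver was called for 847 probes, for 481 with the MAD background and for 610 to 1177 with 1 adipose array left out. That with MEF was called for 487, for 280 with the MAD background and for 352 to 1000, the highest without KO 5. The causes were not tested. All 26 called genes kept their direction in 16 alternatives, which reuse the arrays they were chosen on. Of 154 named genes that were not called, 26 changed sign in at least 1, the largest of them Mest at 0.78. Dim probes are limited by the fitted background, and the brightest by the end of the scale.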

Other observations

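Some genes outside the lists lay just past the threshold and were picked out after their values were seen. Mup1, a carrier of small lipophilic molecules made mainly in liver, read 324, 375 and 401 raw units on WT 1, 2 and 4 and 5197, 3351 and 7727 on KO 2, 3 and 5. All KO arrays were far higher, at 3.88 ± 0.47 on the log2 scale (adjusted p = 0.0587), and KO 5, where the hepatocyte transcript Apoa2 was also high, was the highest, while on KO 2 and KO 3 Apoa2 was at the WT level. Mup genes are close copies of each other, so the probe may read several. Tkt, the transketolase of the pentose phosphate pathway, stood at -1.20 ± 0.14 (adjusted p = 0.0528), in the direction of the glycolysis genes. Nav1, a microtubule-binding protein, stood at 0.95 ± 0.11 (adjusted p = 0.0509), and Ak3, an adenylate kinase of the mitochondrial matrix, at -0.35 ± 0.04 (adjusted p = 0.0587). In all, 12 named probes had an adjusted p between 0.05 and 0.06, 6 above 0 and 6 below.

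A few members of other groups stood out by size without passing. Ddah1, which degrades an inhibitor of nitric oxide synthase, read 8.06, 8.10 and 8.14 on the log2 scale in WT and 9.17, 9.48 and 8.77 in KO, a difference of 1.04 ± 0.18 (adjusted p = 0.122), and 1.26 without KO 5 (adjusted p = 0.0426). The lysosomal membrane protein Cd63 stood at 0.68 ± 0.13, the metallothionein Mt1 at 0.97 and the glucocorticoid-induced kinase Sgk1 at 0.73. Cell cycle genes had 12 tested members between -0.32 and 0.06 with a median of -0.03, and none passed. Proteasome genes had a median of 0.02 over 13. TGF-beta and BMP signalling had 10 of 12 above 0 with a median of 0.18, with the latent TGF-beta binding protein Ltbp1 at 0.62.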
